A study of Mus musculus with 18 samples.

Results

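The hotspots described here are 3606 of the 23554 autosomal meiotic break hotspots mapped in the testis of an infertile mouse hybrid. They carry breaks on both parental chromosomes and lie where the B6 allele of Prdm9 places breaks in inbred B6 males. They were chosen by measured values and are called members. A member had a share of DMC1 reads from the B6 chromosome (B6 share) from 0.1 to 0.9 in the infertile F1 map, a B6/B6 hotspot centre within 1000 bp and no PWD/PWD centre within 1000 bp. Its bin also had to be free of the authors' mark for H3K4me3 peaks likely to be independent of PRDM9. Of the 23554 hotspots, 21059 had a B6 share, 12065 lay within the limits, 4108 of these had a B6/B6 centre, 3875 had no PWD/PWD centre, and 269 of those were left out by the mark. A further 665 unmarked B6-type hotspots had no B6 share and could not be placed. The authors' own allele column called 3569 members B6, 35 undetermined and 2 PWD.

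PRDM9 is a zinc-finger histone methyltransferase of meiotic cells that binds DNA motifs and trimethylates histone H3 at lysine 4 (H3K4me3) on nearby nucleosomes. SPO11 then cuts both DNA strands, and DMC1 coats the resected single strands that search for the homologous chromosome. Where PRDM9 binds equally on both homologs a hotspot is called symmetric, and where sequence differences leave 1 homolog bound it is called asymmetric. Symmetry of PRDM9 binding has been linked to homolog pairing and to the sterility of this hybrid.

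DMC1 ChIP-seq of single-stranded DNA from whole testis gave 9 maps, each from 1 library, so no DMC1 difference has a replicate check. H3K4me3 was counted in 1000 bp bins centred on the hotspots. The infertile F1 had a PWD mother, a B6 father and the PWD and B6 alleles of Prdm9. The reciprocal F1 had the same 2 alleles from the opposite cross. The rescue F1 had a PWD mother and the PWD and Humanized (Hum) alleles, and the Hum/PWD F1 carried these 2 alleles in the opposite cross. Infertile and rescue males of the H3K4me3 samples were littermates. The B6 x CAST F1 carried the B6 and CAST alleles. Inbred C57BL/6J males were B6/B6, B6/Hum or Hum/Hum, and PWD/PhJ males were PWD/PWD. Humanized alleles encode the mouse protein with a human zinc-finger array, and these males are otherwise of the named strain or cross. The B6 allele was thus present in the B6/B6, B6/Hum, infertile, reciprocal and B6 x CAST males and absent from the rescue, Hum/PWD, Hum/Hum and PWD/PWD males. Males of the 8 DMC1 samples of the series were about 10 weeks old, and the library behind the B6/B6 map came from other submitters and was re-analysed. H3K4me3 of the 3 PWD hybrids tabulated had 2 biological replicates per cross, and the B6/B6 table held 1 biological replicate split into pseudoreplicates with the input library of Hum/Hum males. All coordinates are mm10 (GRCm38).

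The sequences under the centres are shown first, because the members are defined by an allele that reads DNA. The motif was taken from 9962 B6/B6 hotspots absent from the infertile map. Among all 8-base words on both strands, GGTGCTAC had the highest ratio of hotspots holding it within 100 bp of the centre (218) to hotspots holding it in flanking windows (mean 23), a ratio of 9.48. No flanking position had 1 base in 50% or more of the copies, so the word was not extended. 4 of the hottest members with the word within 150 bp of the centre are printed 5′ to 3′ on the strand that carries it, with the word in capitals:
Gm17728, 151119 bp away, chr17:9271011-9271110, minus strand: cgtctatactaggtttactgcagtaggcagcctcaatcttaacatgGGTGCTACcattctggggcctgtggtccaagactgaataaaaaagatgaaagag
Trip12, intron, chr1:84806103-84806202, plus strand: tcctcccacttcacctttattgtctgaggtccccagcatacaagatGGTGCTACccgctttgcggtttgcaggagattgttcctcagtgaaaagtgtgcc
E130120K24Rik, intron, chr14:46563014-46563113, plus strand: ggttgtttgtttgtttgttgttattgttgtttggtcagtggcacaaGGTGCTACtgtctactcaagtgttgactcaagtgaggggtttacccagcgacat
Hist1h2br, 41241 bp away, chr13:21878821-21878920, minus strand: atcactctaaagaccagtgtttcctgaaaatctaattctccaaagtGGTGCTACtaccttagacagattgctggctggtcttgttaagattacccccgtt
These 4 members had infertile heats of 256, 250.1, 249.3 and 155 and B6 shares of 0.567, 0.6, 0.858 and 0.519, where heat is the authors' relative DMC1 signal per hotspot. The 2 hottest members of all lacked the word, and the 100 bp at their centres are printed from the plus strand for comparison:
Ankfn1, intron, chr11:89611900-89611999, plus strand: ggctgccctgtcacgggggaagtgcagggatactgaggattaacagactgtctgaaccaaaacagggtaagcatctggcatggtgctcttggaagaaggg
Nedd1, 3770 bp away, chr10:92680926-92681025, plus strand: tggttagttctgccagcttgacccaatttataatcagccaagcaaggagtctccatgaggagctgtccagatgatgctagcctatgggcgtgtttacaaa

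The word was found within 150 bp of the centre, on either strand, of 134 members, which is 3.72% (Wilson 95% interval 3.15 to 4.38%). It was in 0.360% of 7959476 autosomal windows of 301 bp, in 0.416% of the windows 2000 bp to either side of the members and in 0.473% of 5073 PWD-type symmetric hotspots. B6-type hotspots with breaks mainly on the PWD chromosome held it in 3.46% of 1388 sites (2.62 to 4.56%), so the classes of B6 type had overlapping intervals. Only the GRCm38 reference was searched, and the sequence of the PWD chromosome was not read. A looser form, GNTGCTNC, was chosen after seeing that 4 of the 5 most centred words fit it, and it holds GGTGCTAC. It was within 150 bp of 1355 members (37.6%, 36.0 to 39.2%), of 12.7% of all autosomal windows of that length, of 13.6% of the windows 2000 bp away and of 14.2% of the PWD-type symmetric hotspots. Copies were gathered near the centre, with 2406 in the 400 bp around it against 717 and 728 in the outermost 400 bp on either side. Of the 10 hottest members, 4 held the looser form and 0 held the exact word. Split into 4 equal groups by B6/B6 heat, the coldest group held the looser form in 36.6% and the hottest in 38.2%, with overlapping intervals. Across B6 shares it was 40.7% of members from 0.1 to 0.3 and 35.6% of members from 0.7 to 0.9, again with overlapping intervals.

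**Figure D1:**
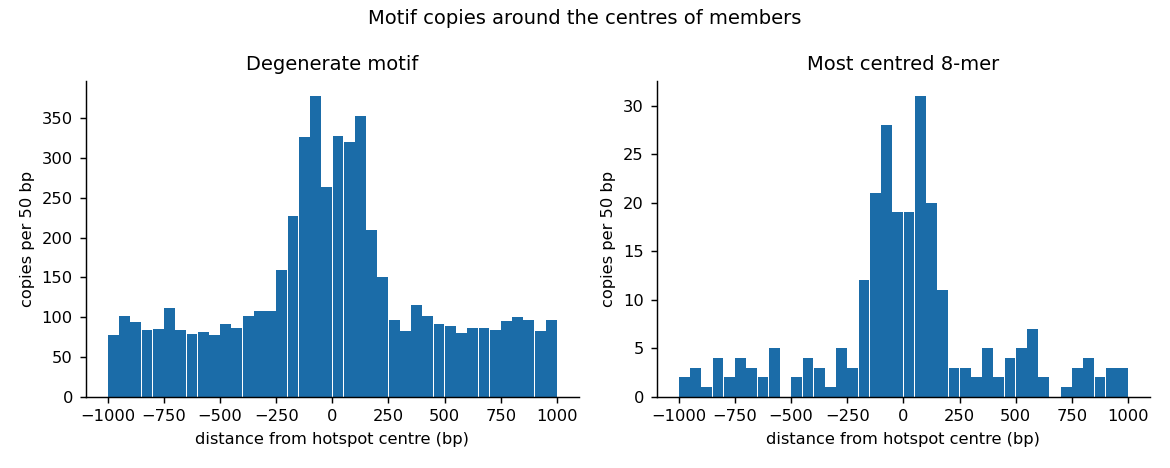
Copies of the degenerate motif (left) and of the exact word (right) per 50 bp, counted on both strands and plotted against distance in bp from the centres of the 3606 members. Bars are highest within 200 bp of the centre in both panels.

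Heat was no part of the choice beyond the need for a hotspot in both the infertile and the B6/B6 map. In the infertile map it ran from 4 to 566.2 over the members with a median of 24.9. The same hotspots had a median heat of 155.35 in B6/B6, and 3540 of the 3606 were colder in the infertile map. The median ratio of B6/B6 to infertile heat was 5.43. In whole testis, fewer cells with a break and fewer or shorter-lived breaks per cell cannot be told apart. Heat is relative within a map, and its sum over autosomal hotspots was between 1.39e+06 and 1.50e+06 in all 9 maps. A lower heat therefore also cannot be told apart from a smaller share of a similar total. Members held 44.1% of the heat of the B6/B6 map, 11.3% of the infertile map, 10.8% of the reciprocal map, 12.6% of the B6/Hum map and 4.88% of the B6 x CAST map. In B6/Hum males, where the B6 allele is also 1 of 2, the median heat of the 2515 members found was 44.7, and 2487 of them were colder there than in B6/B6. The hottest 10th of the members in the infertile map carried 40.5% of the members' heat, and 447 had a heat over 100.

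The 1388 B6-type hotspots with breaks mainly on the PWD chromosome (B6 share under 0.1) showed the opposite order. Their median heat was 121.65 in the infertile map and 60.45 in B6/B6. The 540 with breaks mainly on the B6 chromosome (B6 share over 0.9) had medians of 25.75 and 171.95, near those of the members. The plot of heat by map shows this order for the 5 maps made with the B6 allele.

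**Figure D2:**
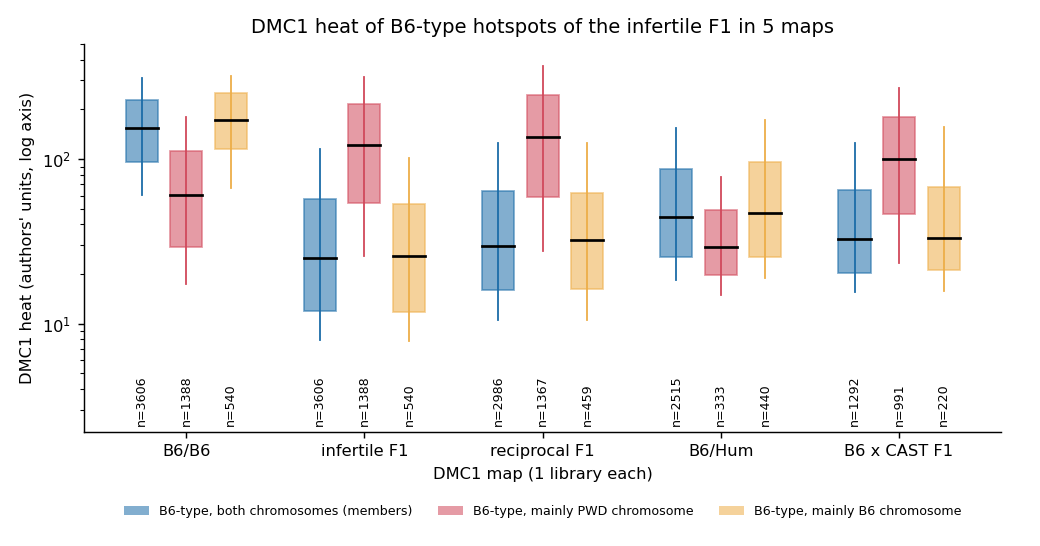
DMC1 heat (authors' units, log axis) in 5 maps of 1 library each for 3 classes of B6-type hotspot of the infertile F1. Boxes span the quartiles, black lines are medians, whiskers reach from the 10th to the 90th percentile, and n counts the hotspots found in each map. Members have a median of 155.35 in B6/B6 and 24.9 in the infertile F1.

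The hottest member lay in an intron of Ankfn1 (chr11:89611950 centre). Infertile F1 heat there was 566.2, beside 750.6 in the reciprocal F1, 638.9 in B6/B6, 740.8 in B6/Hum and 410.8 in B6 x CAST. It was in none of the maps made without the B6 allele, and its B6 share was 0.515, 0.501 and 0.558 in the infertile, reciprocal and B6 x CAST maps. The next, 3770 bp from Nedd1, a gene for a protein that recruits gamma-tubulin, had heats of 489.9, 597.2, 588.2, 466.4 and 442.4 in the same order of maps. After these came an intron of Nrg1, which encodes a growth factor of the neuregulin family, with 464.1 in the infertile and 618.4 in the B6/Hum map. The other 7 of the hottest 10 lay in introns of Gabrb1 (a GABA receptor subunit), Dlc1 (a GTPase-activating protein), Hdac9 (a histone deacetylase), Erbb4 (a receptor for neuregulins) and Fat4 (a giant cadherin), 69927 bp from Erbb4 and 37195 bp from Ankrd50. Their heat ran from 390.3 to 437.3 in the infertile map. All 10 were listed in the reciprocal, B6/Hum and B6 x CAST maps and in 0 of the maps without the B6 allele.

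Whether members appear in other maps tells which alleles and crosses list them. A member counted as found when another map had a centre at most 1000 bp from its own. The reciprocal F1, with the same alleles, listed 2986 members (82.8%, 81.5 to 84.0%), where 72.3% of all hotspots of the infertile map were found. B6/Hum males listed 2515 (69.7%, 68.2 to 71.2%) against 18.3% of all hotspots. B6 x CAST males listed 1292 (35.8%, 34.3 to 37.4%) against 25.1% of all. In the males without the B6 allele few were listed. The rescue F1 had 24 members (0.67%, 0.45 to 0.99%) against 22% of all hotspots, the Hum/PWD F1 had 33 (0.92%, 0.65 to 1.28%) against 32.9%, and Hum/Hum had 31 (0.86%, 0.61 to 1.22%) against 1.95%. Since the choice required a B6/B6 centre and barred PWD/PWD centres, the higher shares in maps with the B6 allele and the low ones in maps of the PWD and Hum alleles follow in part from the rule. Intervals count hotspots of 1 library and do not cover differences between males.

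Matched centres were close in the maps with the B6 allele. The median distance was 62 bp to the B6/B6 centre, 64 bp to the reciprocal, 63 bp to the B6/Hum and 68 bp to the B6 x CAST centre. Rescue centres were a median of 669.5 bp away and Hum/PWD centres 620 bp. Together these 2 maps listed 40 members, of which 17 were in both maps and 17 also had a Hum/Hum centre within 1000 bp.

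The classes of B6-type hotspot differed in which maps listed them. The 1388 hotspots mainly on the PWD chromosome were in the reciprocal map in 98.5% (97.7 to 99%), in B6/Hum in 24% (21.8 to 26.3%) and in B6 x CAST in 71.4% (69.0 to 73.7%), so the order of B6/Hum and B6 x CAST was opposite to that of the members. The 540 mainly on the B6 chromosome were in these maps in 85.0%, 81.5% and 40.7%. PWD-type symmetric hotspots, numbering 5073, were in the reciprocal map in 75%, the rescue F1 in 34.9% and the Hum/PWD F1 in 59.4%. The B6 x CAST map listed 14.7% of them. These classes were set by the same DMC1 shares and maps, so the differences are described without a test.

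Members hotter in B6/B6 were found more often. From the coldest to the hottest of the 4 equal groups by B6/B6 heat (limits at 96.3, 155.35 and 229.28), the reciprocal map listed 58.4, 79.9, 93.7 and 99.2%, the B6/Hum map 25.9, 66.2, 88.7 and 98.2%, and the B6 x CAST map 12.2, 19, 39.6 and 72.5%. Median infertile heat in these groups was 10.8, 16.9, 31.5 and 76. All 3 maps listed 1174 members (32.6%), whose median infertile heat was 75.85, and none of the 3 listed 456 (12.6%), whose median was 8.1. The reciprocal and B6/Hum maps without B6 x CAST listed 1193 (33.1%, median 23.9). The faintest autosomal hotspot had a heat of 4 in infertile, 6.4 in reciprocal, 8.8 in B6/Hum and 6.1 in B6 x CAST males, so faint members lie near the ends of the other lists, and the part of this in the shares was not tested.

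**Figure D3:**
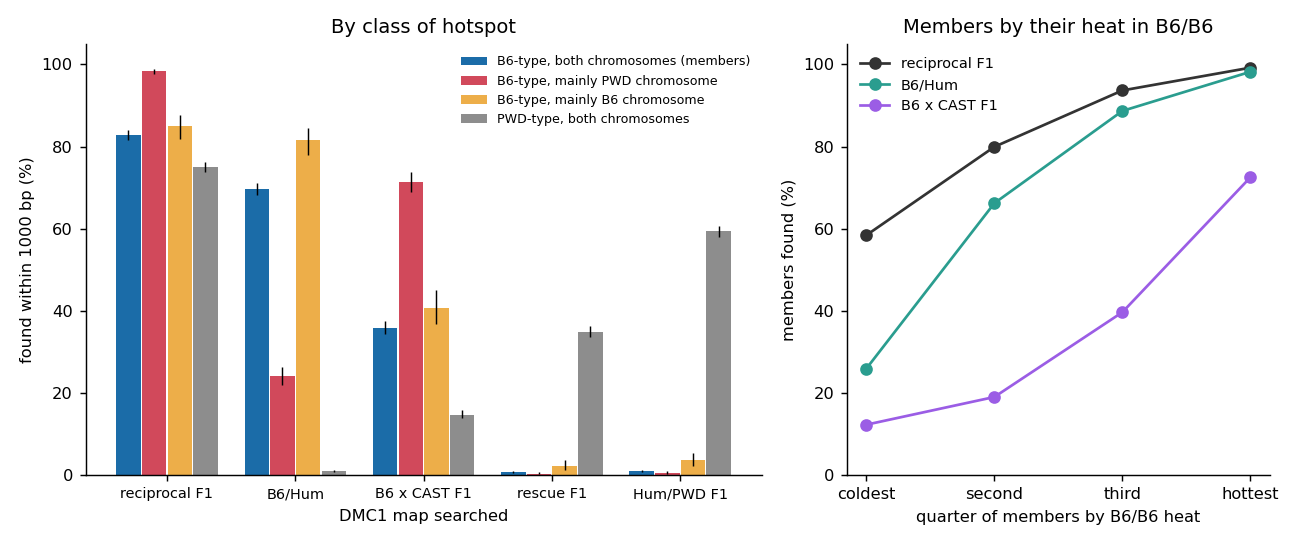
Left, percent of hotspots of 4 classes of the infertile F1 with a centre of the named DMC1 map within 1000 bp, with Wilson 95% intervals. Right, the same percent for members split into 4 equal groups by their B6/B6 heat. Members are listed in the reciprocal, B6/Hum and B6 x CAST maps in 82.8, 69.7 and 35.8%, and the percent is higher in each hotter group in all 3 maps.

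Heat was closely shared with the reciprocal cross. Over the 2986 members in both maps, Spearman's rank correlation across hotspots was 0.941 and the median ratio of reciprocal to infertile heat was 0.970, with quartiles of 0.80 and 1.15. A total of 1335 were hotter in the reciprocal map. Over all 17028 hotspots found in both maps the median ratio was 0.962. With B6/Hum the rank correlation was 0.741 over 2515 members and the median ratio 1.29. With B6 x CAST the rank correlation was 0.580 over 1292 and the median ratio 0.510. Hotspots of 1 map share a library, so these are descriptions.

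The members farthest from the common ratio, among those over the median heat in both maps, were Nlrp9b, St6galnac3 and Cpa6 at the high end. A coding exon of Nlrp9b, an NLR family gene, held a hotspot whose heat was 30.8 in infertile and 63.5 in reciprocal males (ratio 2.06). An intron of St6galnac3, a sialyltransferase gene, had 70.6 and 139.7, and an intron of Cpa6, a carboxypeptidase gene, had 39.6 and 76.8. At the low end an intron of Rfx3, a ciliary transcription factor gene, had 73.4 and 33.5 (ratio 0.456). A hotspot 1124766 bp from Zpld1 had 210.6 and 96.6, and an intron of Atf7ip2 had 68 and 32.1. H3K4me3 was not called as different between the crosses by edgeR at Nlrp9b (log2 −0.56, adjusted p = 0.156), St6galnac3 (−0.11, 0.722), Rfx3 (0.29, 0.371) or Atf7ip2 (0.47, 0.0928). Cpa6 and Zpld1 had no bin paired within 100 bp.

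The B6 share is the readout the choice used in the infertile map, where its median over members was 0.518 and 1608 members lay below 0.5, 99 at 0.5 and 1899 above. Members just inside the low limit, all at 0.1, lay at Pard3b (heat 8), Dnajc10 (211) and Washc3 (16.7). Those just outside lay at Oxsm (share 0.099, heat 80.1), Mlph (0.098, 92.9) and Malrd1 (0.098, 40.5). At the high limit Reln (6.9), Grin2b (22.9) and Slc10a2 (11.3) were inside at 0.9, and Dgkb (0.901, heat 22.6), 9930021J03Rik (0.901, 38.8) and Pdgfd (0.902, 9.8) were outside.

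The reciprocal map measured the share again in other males. It gave a B6 share for 2719 members, with a median of 0.525, and 2541 of them (93.5%) lay again from 0.1 to 0.9. A total of 99 lay below 0.1 and 79 above 0.9. The rank correlation with the infertile share across these hotspots was 0.854, and 67.6% differed by at most 0.1. Over all infertile hotspots with both shares these values were 0.956 and 83.9%, and over the PWD-type symmetric ones 0.826 and 67.8%. Of all infertile hotspots with a share in the reciprocal map, 45.1% lay within the limits there, and of the PWD-type symmetric ones 91.9%. In the B6 x CAST map the homolog is CAST, so a share there compares the B6 chromosome with another sequence. Of 1236 members with a share there, 1090 (88.2%) were within the limits, the median was 0.438, and 752 lay below 0.5. A total of 99 were below 0.1 and 47 above 0.9. The rank correlation with the infertile share was 0.528. Of all infertile hotspots with a B6 x CAST share, 58.7% lay within the limits there, and of the PWD-type symmetric ones 81.5%. Among hotspots mainly on the PWD chromosome, 71 of 1348 (5.27%) were within the limits in the reciprocal and 258 of 981 (26.3%) in the B6 x CAST map. Among those mainly on the B6 chromosome, 27 of 436 (6.19%) were within the limits in the reciprocal and 154 of 206 (74.8%) in the B6 x CAST map.

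Several of the hottest members in B6 x CAST were one-sided there. An untranslated-region site of Htr5a, a serotonin receptor gene, was the member hottest in that map, with 501.7 against 62.7 in the infertile and 84.2 in the B6/Hum map. The B6 share there was 0.594 in infertile, 0.685 in reciprocal and 0.022 in B6 x CAST males. An intron of Tbca, a tubulin-folding cofactor gene, had 13.1 in the infertile and 461 in the B6 x CAST map, with shares of 0.857 and 0.015. Tulp4, a Tubby-like gene, held an intronic site with 285.2 and 432.2 and shares of 0.255 and 0.078. On the other side was Nedd1 (share 0.546 in the infertile, 0.996 in B6 x CAST). So were 2 members named for other readouts, Fat4 (0.515 and 0.954) and the site 476728 bp from Lrrc4c (0.679 and 0.962). Their B6 x CAST heats were lower, 229.9 and 178.8. Ankfn1 was near the middle in both. The intronic Erbb4 site, Hdac9 and Nrg1 had B6 x CAST heats of 335.3, 333.9 and 316.6 and shares there of 0.473, 0.689 and 0.47. The matched B6 x CAST centres lay 174 bp from the Htr5a and 222 bp from the Tbca centre, where the median was 68 bp. At Tulp4, Nedd1, Fat4 and Lrrc4c they lay 9, 24, 4 and 29 bp away. B6 x CAST males also carry the CAST allele, and a match within 1000 bp does not tell which allele placed the breaks.

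In B6/Hum males both chromosomes are B6. The percent of members found there was lowest at low B6 shares, 54.3% for members from 0.1 to 0.3 and 73.2, 74.3 and 70.7% in the next 3 bands of 0.2. The percent found in B6 x CAST went from 45.1% in the lowest band through 38.2 and 35.7% to 24.2% in the highest. Median infertile heat went from 33 through 26.9 and 24.6 to 18.45, while median B6/B6 heat was 118, 164.1, 165.95 and 154.65.

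**Figure D4:**
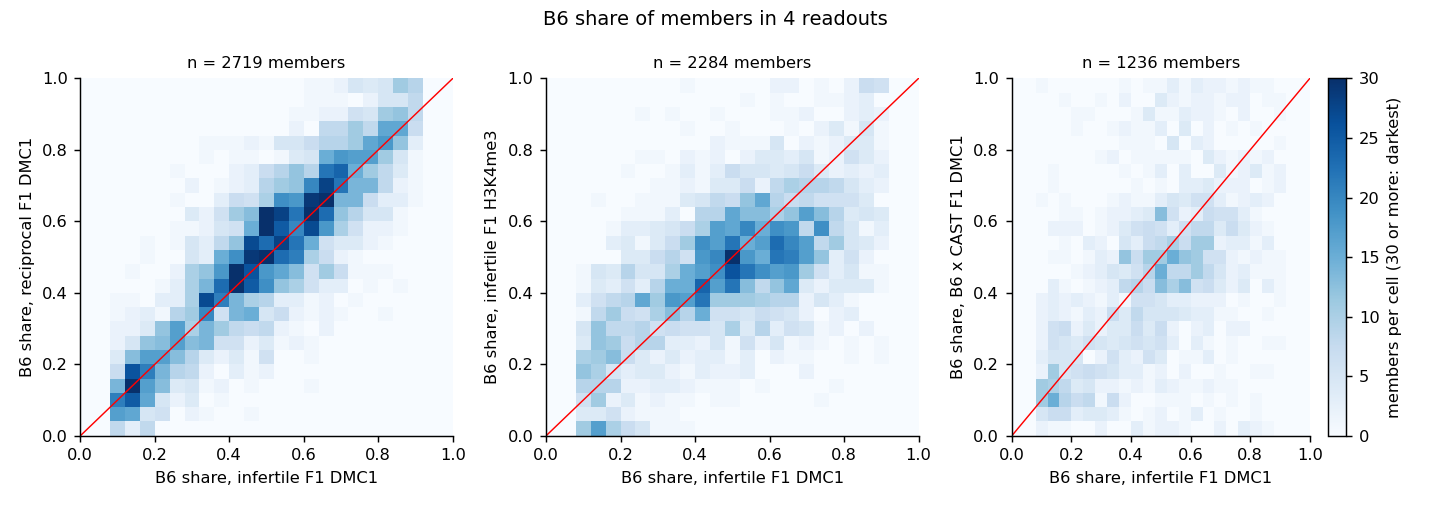
Two-dimensional counts of members by B6 share in infertile F1 DMC1 (x axis, fraction) and in reciprocal F1 DMC1, infertile F1 H3K4me3 and B6 x CAST F1 DMC1 (y axes, fraction). Darker cells hold more members and the red line marks equal shares. The cloud is tightest for the reciprocal F1 (rank correlation 0.854), then H3K4me3 (0.602) and B6 x CAST (0.528).

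Several of the members hottest in males without the B6 allele had a hotspot of Hum/Hum males nearby. An intron of Mrtfb (chr16:13392818 centre) had a heat of 6.7 in the infertile and 82.5 in the B6/B6 map but 726.5 in B6/Hum, 521 in Hum/Hum, 580.6 in rescue and 483.5 in Hum/PWD males. The B6/B6 centre lay 309 bp away and those of the 4 maps with the Hum allele 601 to 737 bp away. An intron of 9530053A07Rik had 7.5 in the infertile, 155.5 in Hum/Hum and 230.3 in the rescue map, the last 738 bp away. Fopnl and Btrc also had Hum/Hum centres, 924 and 895 bp away. Ppfibp2 differed, with an intronic site of heat 294.9 in infertile, 318.2 in reciprocal and 21.8 in B6/B6 males, and of 215.2 in rescue and 225.7 in Hum/PWD males. No Hum/Hum centre was within 1000 bp of it. The reciprocal, rescue and Hum/PWD centres lay 8, 110 and 129 bp away, and the B6/B6 and B6 x CAST centres 377 and 381 bp. The B6 share was 0.5 in infertile and 0.586 in reciprocal males. At the matched hotspots it was 0.982 in rescue, 0.993 in Hum/PWD and 0.025 in B6 x CAST males. Whether the matched hotspots are the same break site was not tested. A Bnc1 intron likewise had shares of 0.4 in infertile, 1 in rescue and 0.985 in Hum/PWD males, from centres 865 and 963 bp away.

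H3K4me3 is a readout independent of the DMC1 reads that chose the members, apart from the mark that removed 269 hotspots. In the infertile table the median member had 26 fragments in replicate 1, 28 in replicate 2 and 25 in the input. Replicates 1 and 2 ranked members alike (rank correlation 0.935 over 3606 bins). By the deposited p adjusted over all autosomal bins (Benjamini-Hochberg, under 0.05), 2960 members (82.1%) had H3K4me3, where 83.1% of all bins did. The share is thus close to that of all hotspots. All bins, here and in the values that follow, include those with the mark, which members lack by the choice. The part of this in the comparison was not tested. Enrichment over local background had a median of 0.798 at members, against 1.04 over all bins, 2.29 at B6-type hotspots mainly on the PWD chromosome, 0.524 at those mainly on the B6 chromosome and 0.717 at PWD-type symmetric hotspots. Among members, calls went from 67.0% in the coldest to 96.0% in the hottest of the 4 groups by B6/B6 heat. Infertile heat and enrichment had a rank correlation of 0.763 across members, where 99 had an enrichment of 0. Over the 3507 members with an enrichment above 0, median heat per unit of enrichment was 34.7, against 38.6 over 22797 such bins of all hotspots and 56.7 over 1382 at hotspots mainly on the PWD chromosome.

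The same call in other tables gave other levels. In the reciprocal F1, 1163 of the 2986 members with a bin (38.9%) had H3K4me3, where 44.1% of all bins of that table did. In B6/B6 males 3395 of 3606 (94.1%) did, where 64.4% of all its bins did, with a median enrichment of 1.30. Members had to be hotspots of both the B6/B6 and the infertile map. Their median B6/B6 heat was 155.35, against 49.1 over all 16974 autosomal hotspots of that map. The part of this in the B6/B6 calls was not tested. The tables differ in input and background, so the calls are to be compared within a table.

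The highest enrichments at members were 15.4 at the site 476728 bp from Lrrc4c, 14.2 in an intron of Plekha5 and 12.9 at a site 23790 bp from Foxo6, a forkhead factor gene. Lrrc4c had 165 and 178 fragments in the infertile replicates against 11 in the input, with a heat of 339.8. Plekha5 had 601 and 578 against 41 with a heat of 289.9, and Foxo6 868 and 765 against 63 with a heat of 134.1. Ankfn1, hottest by DMC1, had 355 and 348 against 30. Htr5a had 27 and 21 against 26 (enrichment 0.640), and Mrtfb 11 and 21 against 23 (0.352). Both bins passed the call for H3K4me3 (deposited p adjusted by Benjamini-Hochberg, 2.60e-06 and 0.00875), with enrichments below the members' median of 0.798.

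H3K4me3 also gave its own B6 share. For 2284 members with at least 10 informative reads after background subtraction the median was 0.473, and 2161 (94.6%) lay from 0.1 to 0.9, 87 below and 36 above. The rank correlation with the DMC1 share was 0.602. In bands of DMC1 share from low to high the median H3K4me3 share was 0.265, 0.448, 0.518 and 0.612, over the 467, 635, 815 and 367 members of the bands with enough reads. At Nrg1, with 278 informative reads, it was 0.509 beside a DMC1 share of 0.518. At the Hsf2bp site, with 308 reads, it was 0.370 beside 0.115. At St6galnac3, with 67.1 reads, it was 0.0753 beside 0.186. Hotspots mainly on the PWD chromosome had 326 of 1260 (25.9%) within the limits by H3K4me3. Of all hotspots with enough reads 62.4% were within them, and of the PWD-type symmetric ones 95.6%.

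H3K4me3 of the infertile and reciprocal F1, which have the same Prdm9 alleles and 2 replicates each, was compared with edgeR's quasi-likelihood test on bins whose centres lay within 100 bp. Of the 3606 members, 1892 had such a pair and 1870 passed the filter on low counts. Total fragments in paired bins were 964854 and 1023262 in the infertile and 920617 and 882919 in the reciprocal replicates. At an adjusted p (Benjamini-Hochberg) under 0.05, 177 members (9.47%) were higher in the infertile F1, against 10.2% of 11303 bins, and 160 (8.56%) were lower, against 10.3%. The median log2 difference was −0.04 at members and −0.01 over all bins. Neither direction was called more often at members than over all bins. Both infertile replicates were above both reciprocal ones at 512 members (27.4%, all bins 29.9%) and below both at 581 (31.1%, all bins 31.2%).

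The direction of the difference moved with the level of H3K4me3. Split into 4 equal groups by mean CPM (fragments scaled to the same library total), from the lowest to the highest, the median log2 difference was −0.53, −0.23, 0.02 and 0.29. Calls were 0 higher and 100 lower in the lowest group, 3 and 46 in the second, 28 and 14 in the third, and 146 and 0 in the highest. Over all 11303 bins, 10.2% were called higher and 10.3% lower. The groups were made from members only, so whether all bins follow the same trend was not tested. The fit does not subtract background, which also differed between the tables in the calls given above, and its part in the result was not tested. DESeq2 gave an adjusted p to 413 of these members, after its filter on low means. It called 10 higher (2.42%, against 2.14% of 3454 bins) and 0 lower (against 4.02%). An unadjusted p under 0.05 was given to 168 of 1892 members by DESeq2 and to 593 of 1870 by edgeR. By edgeR, 3866 of all 11303 bins had such a p. For DESeq2 the number over all bins was not counted, so its 168 has no background beside it. Leaving out replicate 1 or 2 of the infertile F1 gave median log2 differences of −0.05 and −0.06 at members, against −0.01 and −0.03 over all bins. Without replicate 1 or 2 of the reciprocal F1 they were −0.03 and −0.04, against −0.002 and −0.003. Each of these fits called fewer members, and fewer of all bins, than the main fit.

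**Figure D5:**
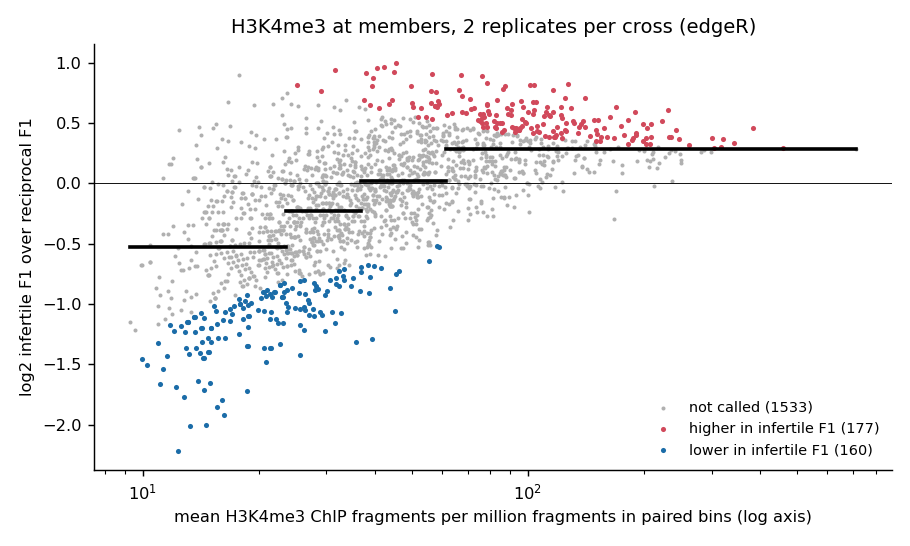
Log2 difference in H3K4me3 between infertile and reciprocal F1 (edgeR, 2 replicates each) at 1870 members against mean CPM (log axis). Red and blue points passed an adjusted p under 0.05 (177 higher, 160 lower), and black lines are medians of the 4 groups by level, from −0.53 to 0.29.

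The 3 members called higher with the largest difference were at B3galt2, Cenpc1 and Slc4a7. B3galt2, a galactosyltransferase gene, had 61 and 66 fragments in the infertile and 31 and 21 in the reciprocal replicates, so the groups did not overlap (log2 0.99 ± 0.23 SE, edgeR adjusted p = 0.000575). Cenpc1, which encodes a kinetochore protein, had 59 and 58 against 26 and 23 (0.96 ± 0.24, edgeR adjusted p = 0.00156). Slc4a7, a bicarbonate transporter gene, had 60 and 52 against 19 and 28 (0.96 ± 0.25, edgeR adjusted p = 0.00217). The 3 called lower with the largest difference were 927448 bp from Epha7, in an intron of Mgat4c and in an intron of Gm30835. Epha7 had 7 and 2 against 23 and 12 (−2.22 ± 0.48, edgeR adjusted p = 0.000123), and its inputs held 12 and 13. Mgat4c had 3 and 8 against 27 and 10, and Gm30835 6 and 6 against 18 and 22. These 6 bins held at most 66 fragments in a replicate. Infertile and reciprocal inputs held 31 and 22 fragments at B3galt2, 21 and 10 at Cenpc1 and 24 and 17 at Slc4a7. They held 17 and 21 at Mgat4c and 18 and 13 at Gm30835. The fit did not use the input, and its part in these differences was not tested.

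The 10 hottest members were all tested, their log2 differences ran from 0.24 to 0.81 toward the infertile F1, and 8 passed the threshold. Over all bins 10.2% were called higher, and in the highest of the 4 groups of members by level 146 of 468 were. Dlc1 had 303 and 281 against 139 and 175 fragments (log2 0.60 ± 0.12, edgeR adjusted p = 1.81e-05), and the intronic Erbb4 site had 125 and 146 against 65 and 61 (0.81 ± 0.16, edgeR adjusted p = 1.23e-05). Ankfn1 had 355 and 348 against 257 and 213 (0.29 ± 0.11, edgeR adjusted p = 0.0469). Nedd1 (0.24, edgeR adjusted p = 0.132) and Gabrb1 (0.34, edgeR adjusted p = 0.111) did not pass. These sites lie in the group with the most fragments, where the median difference was 0.29.

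In the genome, 1889 members (52.4%) lay in introns, 1513 (42.0%) between genes, 95 (2.63%) in coding exons, 70 (1.94%) in untranslated regions and 39 (1.08%) in non-coding exons. A total of 42 (1.16%) lay within 1000 bp of the start of a protein-coding transcript, where 10.3% of all hotspots of the infertile map did, and 1.51% of those mainly on the PWD chromosome and 1.28% of the PWD-type symmetric ones. The mark that removed hotspots with independent H3K4me3 was part of the choice for all of these classes. Median GC content of the central 301 bp was 42.9% at members and 44.5% over all hotspots.

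Members were spread over all 19 autosomes at 1.46 per Mb, from 1.00 on chromosome 9 to 1.89 on chromosome 16. Their share of a chromosome's infertile heat was lowest on chromosome 19 (7.82%, 101 members) and highest on chromosome 3 (13.8%, 234 members), against 11.3% in all. Between 61.1% (chromosome 8) and 68.1% (chromosome 11) of the B6-type hotspots with a B6 share were members, 65.2% in all.

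Genes of meiotic recombination were looked up from a list of 40. The infertile map held 36 hotspots at 23 of these genes, and 1 was a member. It lay 869 bp from Hsf2bp (chr17:31943900 centre), whose product binds BRCA2 in meiotic break repair. Heat there was 300.3 in infertile, 302.3 in reciprocal, 456.4 in B6/B6, 203.9 in B6/Hum and 251.2 in B6 x CAST males. Its B6 share was 0.115, 0.104 and 0.157 in the 3 hybrid maps, close to the low limit in each. It had 292 and 253 H3K4me3 fragments in the infertile replicates against 52 in the input.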

How the data were processed

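The analysis started from the authors' deposited tables. The submitters' processing notes name BWA, SAMtools and bedtools, and mm10 and mm9 as builds, and 3 lists in mm9 coordinates were not used. The hotspot caller is not given in the sources used here. Heat is a signal deposited by the authors without a definition, and the B6 share a deposited fraction without read numbers. Per the file headers, each count is of fragments in a 1 kb bin, enrichment is a ratio to local background, and each p-value comes from the authors' likelihood ratio for enrichment.

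Members, gene lists and rules were chosen with earlier results of these data known. Centres within 1000 bp were matched in Python 3.11.15 (pandas 2.3.3, NumPy 2.4.6), intervals computed with SciPy 1.17.1 and plots drawn with Matplotlib 3.10.9. Places came from GENCODE M21 and sequence from GRCm38. Shares of hotspots carry Wilson 95% intervals, for counting only. R 4.3.3 ran edgeR 4.0.16 (TMM, filterByExpr) and, as an alternative, DESeq2 1.42.0. edgeR and the matching were tested on simulated data. Correlations are across hotspots, which are not replicates. Named hotspots are the 10 hottest members, the 5 hottest in B6/Hum, B6 x CAST, rescue and Hum/PWD, the 3 with the highest and the lowest reciprocal ratio, the 3 highest in enrichment, 3 on either side of each limit, the 3 largest edgeR calls each way and members at listed genes. Replicate numbers of the 2 crosses are not said to pair. X hotspots, inputs on their own and PWD spleen DNA were not analysed here.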

Additional observations from a re-analysis of the deposited data

How the results depend on the processing

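Of the alternatives run, 29 left a result within its interval or within 1.5 times its count and 25 did not. The number of members was 2289 with B6 share limits of 0.3 to 0.7 in place of 3606. With the hottest 15000 hotspots of the other map, members found were 71.7% in the reciprocal, 66.7% in the B6/Hum, 31.1% in the B6 x CAST and 0.527% in the Hum/PWD map. Members at or above the median infertile heat were found in 99.9%, 91.9% and 63.5% for the first 3, and limits of 0.3 to 0.7 gave 73.7% in B6/Hum. The rescue share was 0.277% at 500 bp, 2.25% at 2000 bp and 0.308% without members near a Hum/Hum hotspot, the last chosen after seeing the data. The Hum/PWD share was 0.388%, 2.86% and 0.476% in the same settings. Enrichment above 1 left 1514 members with H3K4me3 in place of 2960, where the median enrichment over all bins was 1.04. The exact word was in 1.77% within 75 bp and 4.80% within 300 bp, and GNTGCTNC, added later, in 37.6%.

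In edgeR, 337 of 1870 members had a called H3K4me3 difference between infertile and reciprocal F1, where 2317 of all 11303 bins did. Bins paired within 250 bp gave 541 of 2707 members, where 3422 of all 15643 bins were called. DESeq2 called 10 members, or 1 without its filter on low means, the last added after seeing the data. Over all bins it called 213 with that filter and 207 of 11436 without it. Leaving out each replicate gave 110 to 240 calls, with a lone sample assumed to vary like the other group. The replicate block gave 327 (173 higher, 154 lower), where 2262 of all 11303 bins were called. Deviations of same-numbered replicates had a correlation of 0.00311, so the numbers were not taken to pair the samples. The causes were not tested. DMC1 maps of 1 library, without read numbers behind heat or B6 share, allow no error for a single hotspot.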
